A study of Rattus norvegicus albus with 6 samples.

Results

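The ribosome biogenesis genes described here encode the machinery that transcribes, modifies, cuts and packs ribosomal RNA into new ribosomal subunits. They were chosen as a given list of 56 gene symbols, with earlier results of these data known. A gene was taken as measured where a probe set carried its symbol alone. Of the 56 genes, 47 were measured, out of 14322 genes with such a probe set in the series. All 47 lay above the level filter, which left out the lowest 30% of genes by mean level and kept 10025 genes. Dkc1, Nop2, Pes1, Bysl, Utp20, Rrp12, Rrp1b and Wdr36 had no probe set under their symbol, Rrn3 shared its only probe set with another gene, and these 9 genes were not analysed here.

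A new ribosome begins in the nucleolus, where RNA polymerase I copies the ribosomal DNA into one long precursor. Small nucleolar RNAs guide its chemical marking, box C/D particles by methylation of sugars and box H/ACA particles by conversion of uridine to pseudouridine. The small-subunit processome and a separate series of large-subunit factors then fold and cleave the precursor, and late factors carry the subunits to the cytoplasm. The output of this pathway is tied to cell growth, and the transcription factor Myc is known to drive many of its genes.

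The cells were primary hepatic stellate cells of rats, fat-storing liver cells that become matrix-producing myofibroblasts when activated, here by 7 days on plastic in low glucose medium with 10% serum. One array, labelled Ad.DKK-1, held cells given an adenovirus for the secreted Wnt antagonist DKK-1, and its control, Ad.GFP, held cells given a virus for green fluorescent protein. Both viruses were used at a multiplicity of infection of 200 for 24 h with 5% serum, and a further 24 h without serum followed. The other treated arrays held cells exposed for 24 h, without serum, to 10 µM ICG-001, which blocks the pairing of β-catenin with its coactivator CBP, or to 200 µM FJ9, which keeps Dishevelled from binding Frizzled, and each had a vehicle array of its own. Every group was 1 array of RNA pooled from 3 to 4 rats, so the 6 arrays hold no replicates and the spread between pools of one condition is known only from the comparison of the 2 vehicle arrays. The sources used here give no age, sex or strain. The stellate cell list had 13 of its 14 markers measured, 12 of them above the level filter, and its mean log2 level was between 10.22 and 10.57 on treated arrays and between 10.95 and 11.30 on control arrays. None of the 5 measured hepatocyte markers was above the filter. Of 7 macrophage and Kupffer cell markers 3 were, and that list's mean ran from 6.27 to 6.56 on treated and from 7.04 to 7.39 on control arrays. Those 3 were Cd14, between 9.69 and 11.63 on the 6 arrays, Cd68, between 7.26 and 8.44, and Csf1r, between 5.74 and 7.33. Clec4f, which marks Kupffer cells, was among the markers not above the filter and read between 4.99 and 6.17. One of 3 measured endothelial markers and both measured cholangiocyte markers were above the filter. The part of these shifts in the results below was not tested, and in such bulk samples a change in cell makeup and a change in RNA per cell cannot be told apart.

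Ribosome biogenesis genes were higher after all 3 treatments than in the matched controls. The median log2 difference of the 47 genes was 0.74 for Ad.DKK-1, 0.62 for ICG-001 and 0.66 for FJ9, beside medians of −0.07, 0.01 and 0.01 over all 10025 genes. At least 1.5-fold higher were 30 of 47 under Ad.DKK-1, where 14.5% of all genes were, 27 under ICG-001, where 12.6% were, and 30 under FJ9, where 11.6% were. None of the 47 was 1.5-fold lower in any treatment, beside 20.8%, 13.1% and 14.8% of all genes in the same order. The differences ran from −0.04 to 1.55, from −0.16 to 1.31 and from 0.06 to 1.06. Between the vehicle arrays, FJ9's minus ICG-001's, the median was 0.14 and 1 gene, Rrs1, passed 1.5-fold higher, where 2.44% of all genes were, with none lower, where 5.2% were. A single treatment has 1 array on each side, so none of these differences has a test.

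**Figure D1:**
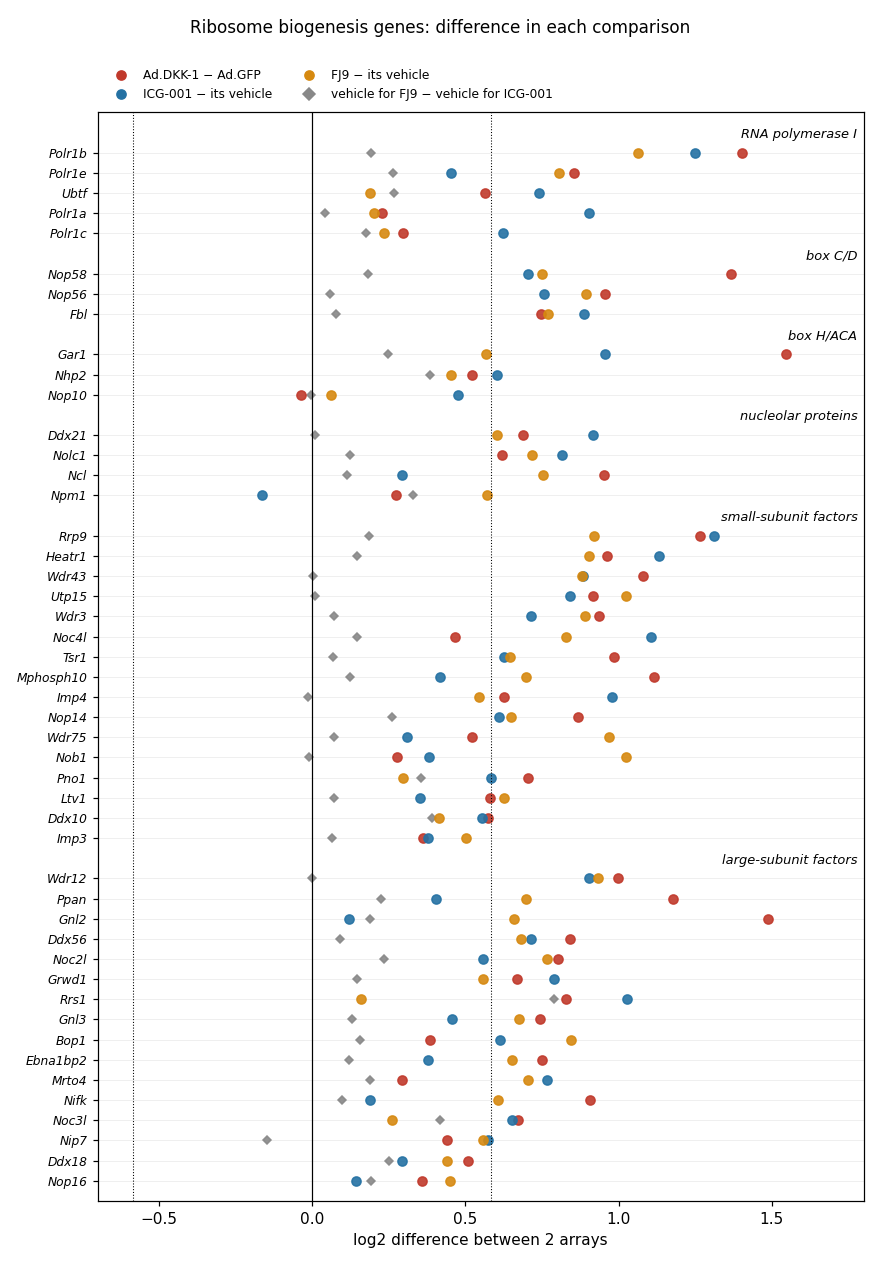
Log2 difference of each of the 47 ribosome biogenesis genes in 4 comparisons, grouped by role and ordered within a role by the mean over the 3 treatments. Circles are treated minus own control, grey diamonds the vehicle for FJ9 minus the vehicle for ICG-001, and dotted lines mark 1.5-fold. Most circles lie right of the diamonds, and the only circles left of 0 are those of Nop10 under Ad.DKK-1 (−0.04) and Npm1 under ICG-001 (−0.16).

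Above 0 were 46 of 47 genes under Ad.DKK-1, 46 with ICG-001 and 47 with FJ9, beside 46.2%, 50.7% and 50.8% of all genes. In 45 of 47 genes all 3 differences were above 0, which held for 23.6% of all genes. The exceptions were Nop10 and Npm1. With each array centred on its median all 47 genes were above 0 in all 3 treatments, beside 2877 of all 10025 genes. In 43 genes the lowest of the 3 treated arrays read above the highest of the 3 control arrays, beside 13.9% of all genes, and Nop10, Npm1, Nop16 and Gnl2 were the 4 that overlapped. At least 1.5-fold higher in all 3 treatments were 15 genes, beside 2.41% of all genes, and in 2 or more treatments 32 genes, beside 8.03%. Of the other genes, 9 passed in Ad.DKK-1 and FJ9, 5 in Ad.DKK-1 and ICG-001, 3 in ICG-001 and FJ9, 4 in ICG-001 alone, 3 in FJ9 alone, 1 in Ad.DKK-1 alone and 7 in none. These comparisons share no array.

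Limma was fitted to treated against control arrays with each treated array and its own control as a block, which tests the mean difference over 3 unlike treatments and never 1 treatment. By limma, 20 of the 47 genes rose at a Benjamini-Hochberg adjusted p under 0.05 over all 10025 genes and 0 fell, while 3.56% of all genes rose and 5.02% fell. An unadjusted p under 0.05 was reached by 42 of the 47 in limma, and in either direction by 25% of all genes. The mean differences of the 20 genes lay between 0.67 and 1.24 with adjusted p from 0.00344 to 0.0459 in limma. The count was 13 without the Ad.DKK-1 pair, 12 without the ICG-001 pair and 11 without the FJ9 pair, and 12, 11 and 11 of the 20 were among them. In those fits 2.64%, 1.65% and 2.68% of all genes rose. The count was 11 without the trend in the prior variance and 12 without the pair block, beside 2.2% and 1.67% of all genes. The 7 genes called in every one of the 10 fits were Polr1b, Nop56, Nop58, Rrp9, Wdr43, Heatr1 and Wdr12, and the calls of the other 13 ended in at least 1 fit.

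Of the RNA polymerase I genes in the given list 5 were measured. All 5 had treated arrays above every control array, beside 13.9% of all genes. Polr1b encodes the subunit that forms the catalytic centre together with Polr1a. Its log2 level was 9.02 on Ad.DKK-1, 8.86 on ICG-001 and 8.87 on FJ9, and 7.62 on Ad.GFP, 7.61 on the vehicle for ICG-001 and 7.80 on the vehicle for FJ9. The treated arrays thus stood at least 1.06 above the highest control. The differences of 1.40, 1.25 and 1.06 averaged 1.24 ± 0.23 (SE) with an adjusted p of 0.00398 in limma. Polr1a, the largest subunit, read 7.81, 8.64 and 7.97 on the Ad.DKK-1, ICG-001 and FJ9 arrays against 7.58, 7.73 and 7.77 on their controls. Only the ICG-001 array stood clear of the rest for this gene, with a difference of 0.90 beside 0.23 and 0.20. Polr1c, a subunit that RNA polymerase III also uses, and Ubtf, which binds the ribosomal DNA promoter, followed that order, with 0.62 and 0.74 under ICG-001, 0.30 and 0.56 under Ad.DKK-1 and 0.23 and 0.19 under FJ9. Polr1e, an accessory subunit that acts in initiation, showed another, with 0.85, 0.45 and 0.81 under Ad.DKK-1, ICG-001 and FJ9. Polr1b alone of the 5 passed limma's threshold, and the medians over the 5 were 0.56, 0.74 and 0.23.

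The core proteins of box C/D particles were higher throughout. Nop56 and Nop58 are the paired scaffold proteins of these particles, and Fbl encodes fibrillarin, the methyltransferase. Nop58 read 11.38, 10.86 and 11.09 on the treated arrays and 10.02, 10.16 and 10.34 on their controls, in the order Ad.DKK-1, ICG-001 and FJ9. Nop56 read 11.71, 11.44 and 11.63 against 10.75, 10.68 and 10.74. Fbl read 10.48, 10.54 and 10.50 against 9.74, 9.65 and 9.73. For all 3 genes every treated array read above every control array, beside 13.9% of all genes. All 9 differences passed 1.5-fold, and 2.41% of all genes did so in all 3 treatments. The differences of Nop58 were 1.37, 0.70 and 0.75, those of Nop56 0.96, 0.76 and 0.89, and those of Fbl 0.75, 0.89 and 0.77. All 3 genes rose over the pairs in limma, by 0.94 ± 0.20 (SE) for Nop58, 0.87 ± 0.18 for Nop56 and 0.80 ± 0.19 for Fbl, with adjusted p of 0.00924, 0.00808 and 0.0166.

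Box H/ACA proteins were less uniform. Gar1, Nhp2 and Nop10 are small core proteins that sit on the pseudouridine synthase. Gar1 had the largest difference of all 47 genes under Ad.DKK-1, with 8.09 against 6.54 on Ad.GFP. It read 7.52 on ICG-001 against 6.57 and 7.38 on FJ9 against 6.81, so the treated arrays lay above all controls while they differed among themselves. The differences were 1.55, 0.96 and 0.57, and Gar1 rose by 1.02 ± 0.28 (SE) in limma with an adjusted p of 0.0347. Nhp2 differed by 0.52, 0.60 and 0.45. Nop10 read 12.02, 12.35 and 11.93 on treated arrays and 12.06, 11.87 and 11.87 on controls. Its arrays overlapped, with a difference of 0.48 under ICG-001 beside −0.04 and 0.06 for Ad.DKK-1 and FJ9. Neither Nhp2 nor Nop10 passed limma's threshold, with adjusted p of 0.117 and 0.598.

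Among the abundant nucleolar proteins, Nolc1, a chaperone of small nucleolar particles, and the helicase Ddx21, which acts in transcription and processing of ribosomal RNA, were 1.5-fold higher in all 3 treatments. Nolc1 differed by 0.62, 0.81 and 0.72 and Ddx21 by 0.69, 0.92 and 0.60. Ncl, which encodes nucleolin, an RNA-binding protein of the nucleolus, read 12.07 on Ad.DKK-1 and 12.08 on FJ9 but 11.51 on ICG-001, against 11.12, 11.33 and 11.22 on their controls. Its differences were thus 0.95 and 0.75 for Ad.DKK-1 and FJ9 and 0.29 for ICG-001. Limma called Nolc1, Ddx21 and Ncl, with adjusted p of 0.0387, 0.0210 and 0.0443. Npm1, which encodes the nucleolar chaperone nucleophosmin, read 11.66, 11.31 and 12.37 on treated arrays and 11.39, 11.47 and 11.80 on controls. On the probe set used, the ICG-001 array was the lowest of the 6 for Npm1, and the differences were 0.27, −0.16 and 0.57. On others Ad.GFP read slightly below ICG-001 (11.08 against 11.09 and 10.33 against 10.35). All 4 probe sets of Npm1 gave differences of the same signs, with −0.09 to −0.38 under ICG-001, 0.27 to 0.42 under Ad.DKK-1 and 0.57 to 0.66 under FJ9. These probe sets may share signal with processed copies of the gene. Centring each array on its median over all probe sets moved the ICG-001 value of Npm1 to 0.01.

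**Figure D2:**
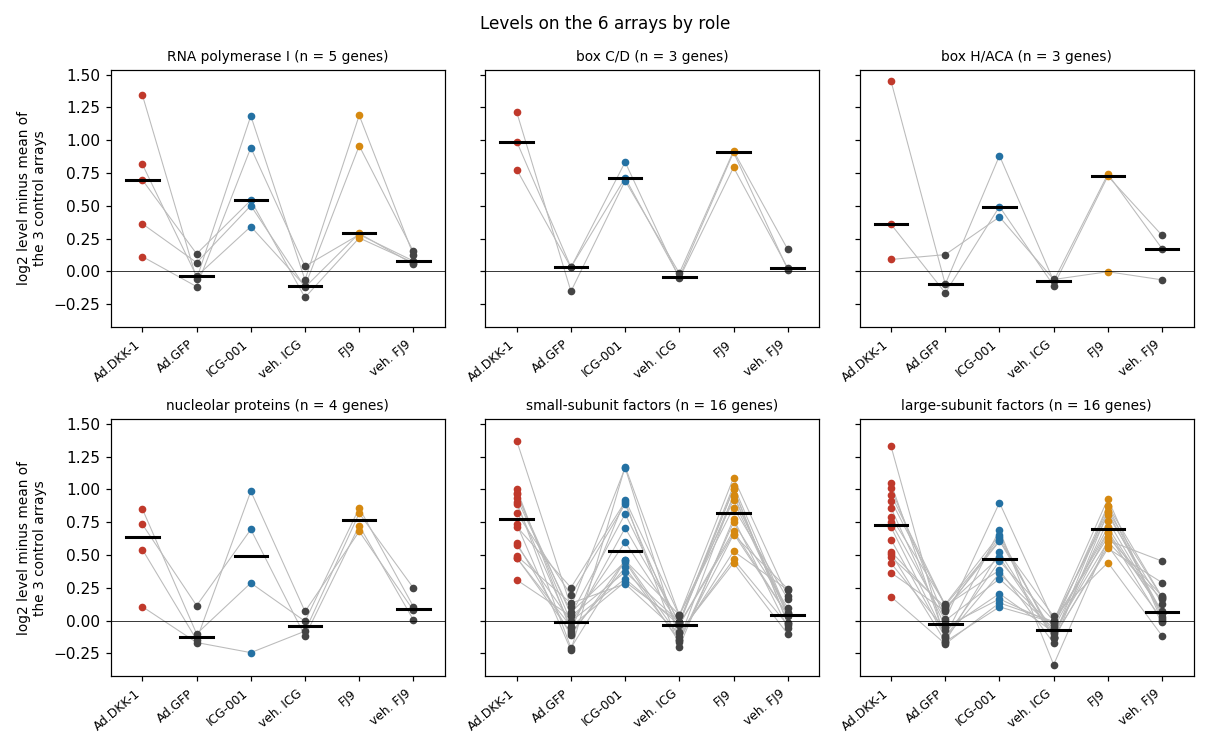
Log2 level of each gene on the 6 arrays, minus its own mean over the 3 control arrays, in 1 panel per role. Grey lines join the arrays of a gene and black bars are medians over the genes of the panel. Coloured points (treated) lie above dark points (controls) in the box C/D panel without overlap, and 1 gene, Npm1, falls below 0 on the ICG-001 array.

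Small-subunit factors were measured for 16 genes, and in all 16 every treated array read above every control array, beside 13.9% of all genes. Their medians were 0.79 with Ad.DKK-1, 0.62 with ICG-001 and 0.76 with FJ9. At least 1.5-fold higher were 10, 9 and 12 of 16, beside 14.5%, 12.6% and 11.6% of all genes. Rrp9 encodes the protein that binds the guide RNA of the processome. It read 9.92, 9.72 and 9.51 on treated arrays against 8.66, 8.41 and 8.59 on controls. Its differences were 1.26, 1.31 and 0.92, and it had the lowest adjusted p of the 47 genes in limma, 0.00344, with a rise of 1.16 ± 0.21 (SE).

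Heatr1, Wdr43, Utp15 and Wdr75 belong to the part of the processome that joins the precursor first and is needed for its transcription. Wdr43 read 10.89, 10.81 and 10.81 on treated arrays and 9.81, 9.93 and 9.93 on controls. The 3 treated arrays spanned 0.08 and the 3 control arrays 0.12, and the differences were 1.08, 0.88 and 0.88. Heatr1 read 9.83, 10.27 and 10.19 against 8.87, 9.14 and 9.28, with differences of 0.96, 1.13 and 0.90. Utp15 differed by 0.92, 0.84 and 1.03. These 3 genes rose in limma, with adjusted p of 0.00603 for Wdr43, 0.00603 for Heatr1 and 0.0121 for Utp15. Wdr75 was higher mainly under FJ9, at 0.97 beside 0.52 and 0.31 for Ad.DKK-1 and ICG-001, and missed the threshold at an adjusted p of 0.0810 in limma.

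The remaining processome factors gave a range of values. Wdr3, a scaffold protein of a second early complex, differed by 0.94, 0.72 and 0.89, and rose with an adjusted p of 0.0135 in limma, a call that ended without the FJ9 pair (adjusted p = 0.0503, the highest of its 10 fits, of which the lowest was 0.0117). Imp4, Mphosph10 and Imp3 travel as one complex that brings the guide RNA to its site. They did not share one pattern, since Imp4 was highest under ICG-001 (0.98, beside 0.63 and 0.54 for Ad.DKK-1 and FJ9), Mphosph10 under Ad.DKK-1 (1.11, beside 0.42 and 0.70 for ICG-001 and FJ9), and Imp3 stayed under 1.5-fold at 0.36, 0.38 and 0.50. Limma called Imp4 and Mphosph10 and not Imp3, with adjusted p of 0.0305, 0.0385 and 0.194. Nop14 and Noc4l bind each other in the processome. Nop14 differed by 0.87, 0.61 and 0.65 and passed limma's threshold at 0.0360, and Noc4l differed by 0.47, 1.11 and 0.83 and missed it at an adjusted p of 0.0512. The helicase Ddx10 differed by 0.57, 0.55 and 0.41.

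Of the late small-subunit factors, Tsr1, which guards the subunit against early use in translation, differed by 0.98, 0.63 and 0.65 and rose in limma with an adjusted p of 0.0259. Nob1, the nuclease that makes the last cut in the small-subunit RNA, read 9.75, 9.81 and 10.44 on treated arrays against 9.47, 9.43 and 9.42. The FJ9 array stood apart for this gene, with a difference of 1.02 beside 0.28 and 0.38. Its partner Pno1 showed the reverse, with 0.29 under FJ9 and 0.70 and 0.58 under Ad.DKK-1 and ICG-001. Ltv1, which acts on the head of the subunit, differed by 0.58, 0.35 and 0.63. None of Nob1, Pno1 and Ltv1 passed in limma, with adjusted p of 0.115, 0.101 and 0.107.

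Large-subunit factors were measured for 16 genes as well, with medians of 0.75, 0.57 and 0.66. Of the 16, 11, 7 and 10 were at least 1.5-fold higher, beside 14.5%, 12.6% and 11.6% of all genes. On the probe sets used, all 16 were above 0 in every treatment, beside 23.6% of all genes. Treated arrays read above every control array in 14 of them, beside 13.9% of all genes. Wdr12 and Bop1 are partners in a complex that processes the large-subunit RNA. Wdr12 read 10.24, 10.13 and 10.16 on treated arrays and 9.24, 9.23 and 9.23 on controls. Its arrays fell into those sets with nearly equal values inside each, and its differences of 1.00, 0.90 and 0.93 had the narrowest spread over treatments of all 47 genes, 0.10. Wdr12 rose by 0.94 ± 0.19 (SE) in limma with an adjusted p of 0.00763. Bop1 differed by 0.38, 0.61 and 0.85 and missed the threshold at an adjusted p of 0.0994 in limma.

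The GTPase gene Gnl2 had the widest spread over treatments, 1.37. It read 10.99, 9.76 and 10.50 on treated arrays and 9.50, 9.65 and 9.84 on controls. The ICG-001 array lay below the vehicle of FJ9, and the differences were 1.49, 0.12 and 0.66. Gnl3, which encodes the related GTPase nucleostemin, differed by 0.74, 0.45 and 0.67, and by 0.42, 0.21 and 0.69 on its other probe set. Nifk, which binds the proliferation protein Ki-67, and Ppan repeated the order of Gnl2, with 0.91, 0.19 and 0.61 for Nifk and 1.18, 0.40 and 0.70 for Ppan. The adjusted p in limma was 0.0652 for Gnl2, 0.0516 for Gnl3, 0.111 for Nifk and 0.0686 for Ppan.

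Besides Wdr12, limma called the helicase gene Ddx56 and Noc2l, which acts in the nuclear transport of the subunit. Ddx56 differed by 0.84, 0.71 and 0.68 with an adjusted p of 0.0410, and Noc2l by 0.80, 0.56 and 0.77 with an adjusted p of 0.0459. Rrs1, which helps to bring the small ribosomal RNA of the large subunit into place, read 8.05, 8.03 and 7.95 on treated arrays and 7.22, 7.00 and 7.79 on controls. Its treated arrays were alike and its controls were not. The vehicle of FJ9 stood 0.79 above that of ICG-001, so the difference was 0.83 with Ad.DKK-1, 1.03 with ICG-001 and 0.16 with FJ9. With the vehicle arrays exchanged it was 0.24 for ICG-001 and 0.95 for FJ9. On the probe sets used, Mrto4, Grwd1, Ebna1bp2 and Noc3l lay between 0.26 and 0.79 in every treatment. Nip7, Ddx18 and Nop16 passed 1.5-fold in none there, with ranges of 0.44 to 0.57, 0.29 to 0.51 and 0.14 to 0.45. In the order Ad.DKK-1, ICG-001 and FJ9, another probe set gave 0.90, 0.30 and 0.69 for Ebna1bp2. Such a probe set gave 0.39, 0.67 and 0.44 for Nip7 and −0.08, 0.03 and 0.38 for Nop16.

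**Figure D3:**
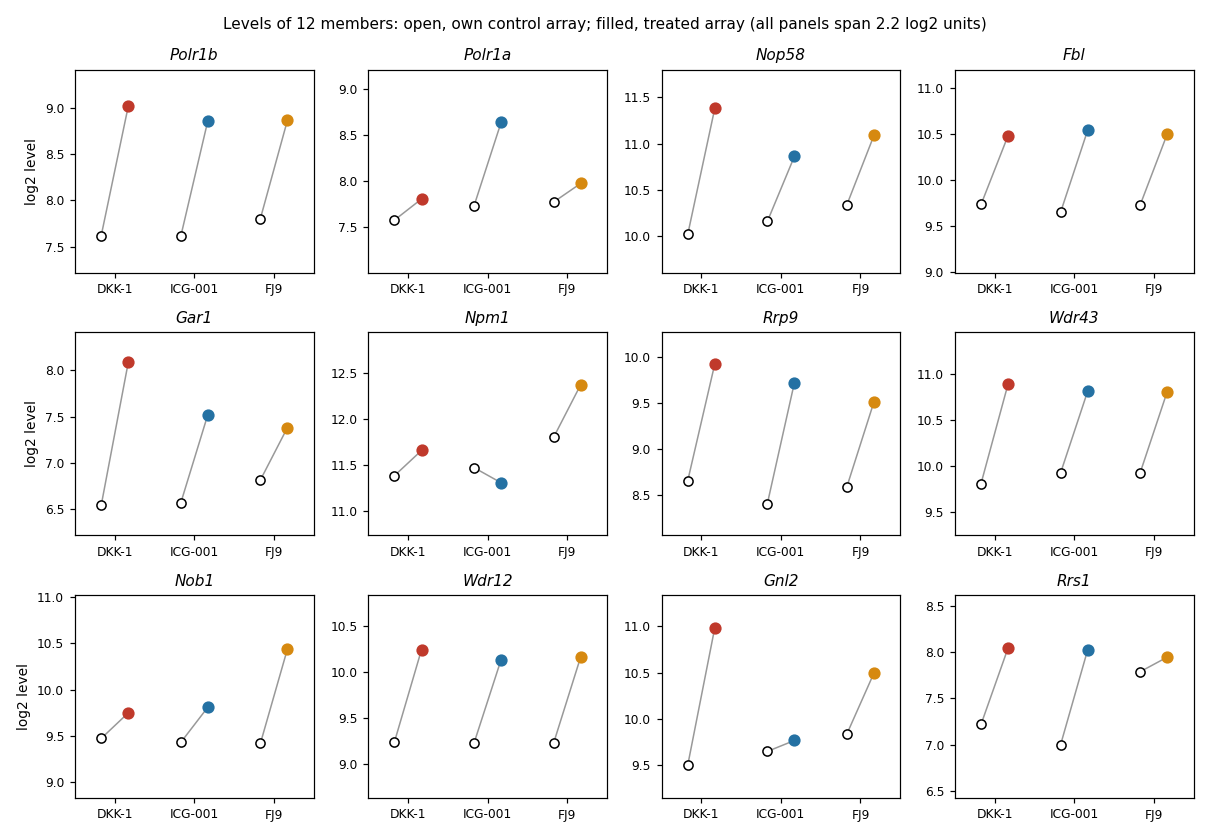
Log2 level of 12 genes, picked after their values were seen to show the range of patterns, on each treated array (filled) and its own control (open), in panels of equal height. Polr1b, Nop58, Fbl, Rrp9, Wdr43 and Wdr12 rise in each pair, Gnl2 differs by 0.12 under ICG-001, Nob1 by 1.02 under FJ9, and the controls of Rrs1 are unequal.

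The treatments differed in which genes led. Ad.DKK-1 gave the largest of the 3 differences for 23 genes, ICG-001 for 16 and FJ9 for 8. That order rests on the vehicle array used, since with the vehicle arrays exchanged, a comparison chosen after seeing the data, the counts were 16 for Ad.DKK-1, 6 for ICG-001 and 25 for FJ9. The 6 largest under Ad.DKK-1 were Gar1 (1.55), Gnl2 (1.49), Polr1b (1.40), Nop58 (1.37), Rrp9 (1.26) and Ppan (1.18). Under ICG-001 they were Rrp9 (1.31), Polr1b (1.25), Heatr1 (1.13), Noc4l (1.11), Rrs1 (1.03) and Imp4 (0.98), and under FJ9 Polr1b (1.06), Utp15 (1.03), Nob1 (1.02), Wdr75 (0.97), Wdr12 (0.93) and Rrp9 (0.92). Polr1b and Rrp9 were in all 3 sets. Over the 47 genes, the differences of Ad.DKK-1 and FJ9 had a Pearson correlation of 0.45, those of Ad.DKK-1 and ICG-001 of 0.28 and those of ICG-001 and FJ9 of 0.19, beside 0.45, 0.46 and 0.45 over all 10025 genes. These are descriptions across genes that share arrays. No test of the difference between treatments is possible with 1 array each.

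The choice of vehicle changed the size of the compound results and no median's direction. The 47 genes read slightly higher on the vehicle array of FJ9 than on that of ICG-001, with 42 of 47 above 0 beside 54.3% of all genes. Against the other vehicle, ICG-001 had a median of 0.46, with 18 genes at least 1.5-fold higher, beside 12.5% of all genes, and 44 above 0. FJ9 then had a median of 0.84, with 40 genes at least 1.5-fold higher, beside 15.8%, and 47 above 0. With each array centred on its median, 36, 35 and 30 genes were 1.5-fold higher under Ad.DKK-1, ICG-001 and FJ9 and none lower, and the share of all genes higher and lower turned to 18.7% and 16.8% for Ad.DKK-1 and to 22.1% and 7.52% for ICG-001.

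A further list of ribosome biogenesis genes outside the 47, also chosen with earlier results of these data known, was read for comparison. Of its 89 genes 76 were measured, all above the level filter. Their medians were 0.68, 0.48 and 0.48 in the order Ad.DKK-1, ICG-001 and FJ9, and 0.16 between vehicles. At least 1.5-fold higher were 50, 28 and 28 of 76 in the treatments, beside 14.5%, 12.6% and 11.6% of all genes, and 0, 0 and 2 were lower, beside 20.8%, 13.1% and 14.8%. By limma 22 of the 76 rose, beside 3.56% of all genes, and 0 fell, beside 5.02%. An unadjusted p under 0.05 in limma, in either direction, was reached by 51 of the 76, beside 25% of all genes. Among large-subunit factors the largest differences were those of the helicase gene Ddx31 under Ad.DKK-1 (1.43), Eif6 under ICG-001 (0.91, with Ddx31 at 0.90) and Nol8 under FJ9 (1.39, with Ddx31 at 1.25), and among small-subunit factors those of Aatf (1.11 under ICG-001 and 1.49 under FJ9) and Rcl1 (1.19 under Ad.DKK-1). The 2 lower genes under FJ9 were both subunits of the polymerase, Polr1d (−1.15), which RNA polymerase III shares, and Polr1g (−0.61). Polr1d also differed by −0.46 under Ad.DKK-1 and −0.29 under ICG-001. It was the 1 gene of the 76 with all 3 differences below 0, beside 2344 of all 10025 genes. It was also the 1 with every treated array below every control array, beside 1326 of all genes. Polr1g differed by −0.26 under ICG-001 and by 1.35 under Ad.DKK-1, where the promoter factor subunit Taf1a also read 1.41 higher.

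Genes of the ribosomal proteins themselves, 71 measured, had few members past 1.5-fold. Their medians were −0.20 with Ad.DKK-1, −0.02 with ICG-001 and 0.29 with FJ9, with 0, 1 and 0 genes at least 1.5-fold higher, beside 14.5%, 12.6% and 11.6% of all genes, and 4, 2 and 0 lower, beside 20.8%, 13.1% and 14.8%. Above 0 were 12 of 71 genes with Ad.DKK-1, 32 with ICG-001 and 68 with FJ9, beside 46.2%, 50.7% and 50.8% of all genes. With each array centred on its median, 28, 49 and 68 were above 0, beside 5205, 6333 and 5082 of all 10025 genes. Limma called none of the 71 in either direction, while 3.56% of all genes rose and 5.02% fell. None of the 71 had an unadjusted p under 0.05 in limma, beside 25% of all genes in either direction. The ICG-001 median turned to 0.15 with median centring, where the median over all genes turned from 0.01 to 0.18. The signs for Ad.DKK-1 and FJ9 held under median centring, repeated quantile normalization and loess correction. The largest were Rpl39 (−0.70) under Ad.DKK-1, Rps10 (0.76) under ICG-001 and Rps14 (0.55) under FJ9. Many ribosomal protein genes have processed copies, so signal may be shared between them. The difference between the lists was not tested.

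**Figure D4:**
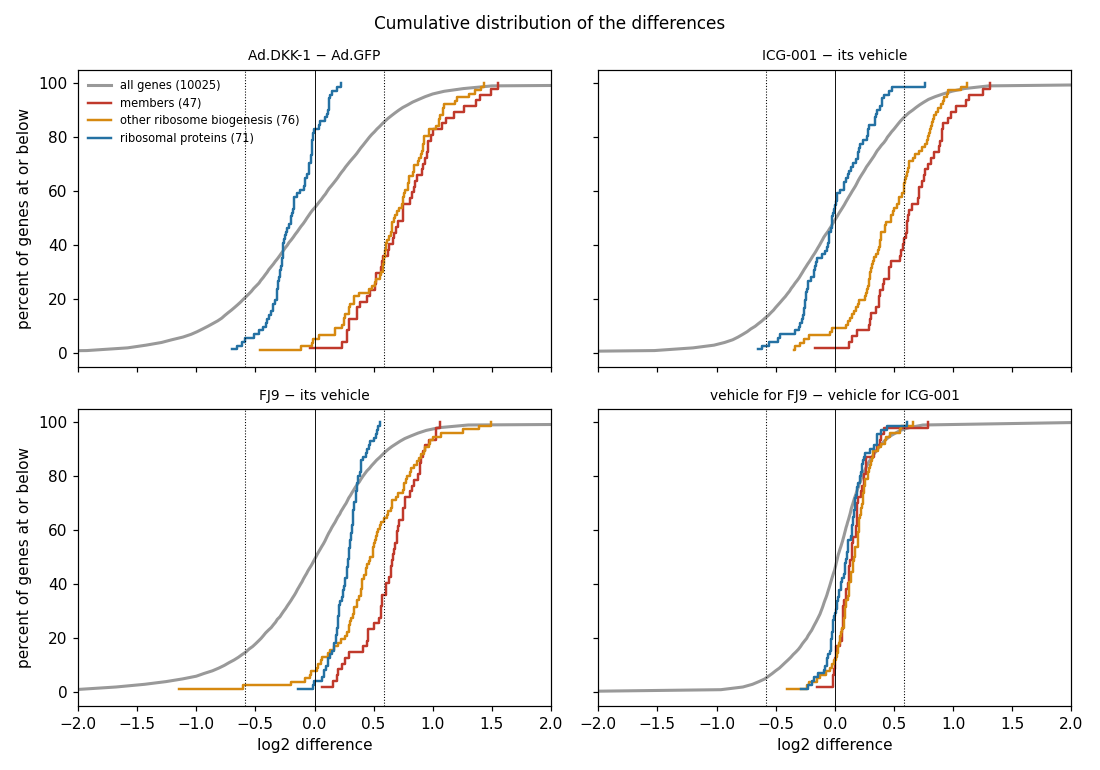
Percent of genes at or below each log2 difference, in 1 panel per comparison, for the 47 ribosome biogenesis genes, 76 further genes of the pathway, 71 ribosomal protein genes and all 10025 genes. Dotted lines mark 1.5-fold. The biogenesis curves cross 50% between 0.48 and 0.74 in the 3 treatments, right of the curve of all genes there, and the ribosomal protein curve crosses 50% at −0.20, −0.02 and 0.29.

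Myc read 9.97 on Ad.DKK-1, 10.75 on ICG-001 and 10.77 on FJ9, and 8.95, 9.99 and 9.97 on their controls. The Ad.DKK-1 array read level with the vehicle arrays, so the groups overlapped although each treated array was above its own control, by 1.03, 0.75 and 0.81. Myc rose by 0.86 ± 0.19 (SE) in limma with an adjusted p of 0.0120, and this call ended without the pair block (adjusted p = 0.124, over a range of 0.0102 to 0.124). Its antagonist Mxd4 fell by 1.08 over the pairs with an adjusted p of 0.0112 in limma. That call ended with median centring (0.0501), without the pair block (0.0820) and without the ICG-001 pair (0.0757), over a range of 0.000443 to 0.0820, and its differences were −0.40, −1.36 and −1.49. The antagonist Mnt differed by 0.77, 0.25 and 0.43, Mxi1 by −0.79, −0.54 and −0.20, Mxd1 by −0.23, 0.19 and 0.11, and the shared partner Max by 0.53, 0.16 and 0.40. Mycn lay under the level filter.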

How the data were processed

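Log2 expression values from 6 Affymetrix arrays were used as the authors deposited them, and per the submitters' processing notes they come from RMA, run in Affymetrix Expression Console. Its version and the genome build were not given in the sources used here. Platform annotation gave 1 symbol to 15092 of 26988 probe sets and several to 323, and left 11573 without a name. By Entrez identifier, 15062 matched RefSeq (GRCr8, names only), and 0 symbols changed. The probe set with the highest mean stood for a gene (6 measured members had several). Genes with a mean level up to 6.39 were left out.

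Each control was subtracted from its treated array on the log2 scale, and differences were counted at 1.5-fold (0.58). Limma 3.58.1 (R 4.3.3; lmFit, eBayes with trend, two-sided, Benjamini-Hochberg) was fitted with the pair as a block, leaving 2 residual degrees of freedom. It was tested on simulated data. Array medians ran from 7.01 to 7.28, although RMA usually brings arrays to one distribution, and the reason is not known. The number of arrays limits the precision, and no replicate exists within a group. Every gene of the list may be named; of the other lists, up to 3 with the largest absolute difference per comparison, and the Myc network always. Members were described by role, and those with the largest differences in each treatment were then listed. The members, roles and lists were chosen with earlier results of these data known.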

Additional observations from a re-analysis of the deposited data

Results flagged for a closer look

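Of the 47 genes, 2 had treatments that went opposite ways, and this difference was not tested. Nop10 differed by −0.037 with Ad.DKK-1, 0.48 with ICG-001 and 0.062 with FJ9. Npm1 differed by 0.27, −0.16 and 0.57 in the same order. Each group is 1 array, and the negative values of both genes lie within the 1.5-fold limits. With median centring neither value stayed below 0, at 0.057 for Nop10 under Ad.DKK-1 and 0.0094 for Npm1 under ICG-001, and Nop10 was also above 0 with quantile normalization (0.053) and loess correction (0.012).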

How the results depend on the processing

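Counts and medians of the 47 genes were recomputed with median centring, repeated quantile normalization, loess correction, no level filter, a filter at 50%, a fold of 2, the mean of a gene's probe sets and, for the compounds, the other vehicle. No difference past 1.5-fold changed sign in any of them, and 4 genes with smaller differences did. Nop10 under Ad.DKK-1 turned from −0.037 to 0.057 with median centring, 0.053 with quantile normalization and 0.012 with loess correction, and Npm1 under ICG-001 from −0.16 to 0.0094 with median centring. With the other vehicle, Gnl2 and Nop16 under ICG-001 turned to −0.07 and −0.05. At a fold of 2 the genes higher were 8 under Ad.DKK-1, 5 under ICG-001, 3 under FJ9 and 0 between vehicles, beside 3.99%, 2.89%, 2.44% and 0.309% of all genes. The ICG-001 median moved to 0.79 with median centring. That step shifts every gene of an array alike, and the ICG-001 median over all genes moved from 0.01 to 0.18. With the other vehicle the ICG-001 median moved to 0.46 and the FJ9 median to 0.84, beside 0.02 and −0.04 over all genes. The limma count of 20 became 11 without the trend and 12 without the pair block. It was 13, 12 and 11 without the Ad.DKK-1, ICG-001 and FJ9 pairs, fits that leave 1 residual degree of freedom. It was 17 with median centring and 14 with quantile normalization. The share of all genes rising, 3.56% in the main fit, became 2.2%, 1.67%, 2.64%, 1.65%, 2.68%, 2.9% and 2.92% in the same order. The cause of the moves with the other vehicle and in the limma count was not tested. Treated and control arrays are paired by the labels, and no label gives replicate numbers. With 6 arrays, only shared shifts over unlike treatments can be tested.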

Other observations

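Ad.GFP, infected and first kept in serum, differed from the mean of the vehicle arrays by a median of −0.06 over the 47 genes and by 0.02 over all 10025 genes. Myc read 8.95 on Ad.GFP and 9.99 and 9.97 on the vehicle arrays.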
